A study of Mus musculus with 12 samples.

Results

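The 49 genes described here encode the proteins that copy the genome in S phase: origin licensing factors, the helicase and its activators, the polymerases, the sliding clamp and its loader, the enzymes of Okazaki fragment maturation, the suppliers of deoxynucleotides, the cyclin E and E2F genes that open S phase, and the factors that rebuild chromatin behind the fork. They were chosen by function, with earlier results of these data known. They were found in the expression table by the full name in its gene description. All 49 were found among 58735 listed genes. All 49 were also among the 17538 genes tested, those with a mean of at least 0.5 FPKM over the 12 libraries. FPKM here are fragments per kilobase of gene, scaled by 1 deposited factor per library. That factor implied a depth of 0.712 to 1.085 times the library's own reads on genes.

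DNA replication starts at origins, where the origin recognition complex, CDC6 and CDT1 load the MCM helicase in G1 phase, a step called licensing. Cyclin E with CDK2 and other S phase kinases then activate the helicase with CDC45 and the GINS complex, and DNA polymerases alpha, epsilon and delta copy the strands. Most of these genes are known targets of the E2F transcription factors, so their mRNAs are known to climb together as a cell passes from G1 into S phase.

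RNA was sequenced from U2OS, an established human osteosarcoma cell line, in 4 groups of 3 libraries: blank cells, cells given 1 of 2 siRNAs against the splicing factor SRSF1 (siSRSF1-2 and siSRSF1-3), and cells in which LINC01134, a long non-coding RNA, was overexpressed (OE-LINC01134). None of the 12 libraries is labelled as a control siRNA or an empty vector, so the effect of transfection itself and that of SRSF1 or LINC01134 cannot be told apart. The vector and promoter behind OE-LINC01134 are not given in the sources used here, and the study's methods describe the siRNA transfection in another osteosarcoma line, HOS. The sample labels name mouse as the organism, whereas the table lists human Ensembl genes and the line is human, so human genes were taken throughout.

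SRSF1, the target of both siRNAs, was at 35.9, 19.8 and 20.5 FPKM in blank replicates 1 to 3, 31.8, 29.6 and 30.3 with OE-LINC01134, 7.09, 7.46 and 7.41 with siSRSF1-2 and 3.33, 6.81 and 7.9 with siSRSF1-3. Both siRNA groups lay below all blank libraries, and blank replicate 1 lay far above the other 2. The log2 fold change was -1.72 ± 0.23 (SE, n = 3 against 3) with siSRSF1-2 (limma adjusted p = 0.0050) and -2.09 ± 0.38 with siSRSF1-3 (limma adjusted p = 0.0518), and an exact permutation test gave p = 0.1 for each, the smallest that 3 against 3 libraries allow. LINC01134 was at 891, 1279 and 878 FPKM in the OE-LINC01134 libraries and between 0.497 and 1.11 FPKM in the other 9 (two-sided exact permutation p = 0.1 against blank).

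The libraries held 26237763 to 32954539 reads on genes, and a few of them stood apart. Blank replicates 2 and 3, OE-LINC01134 replicates 1 and 3, and the 3 siSRSF1-2 libraries varied within each set by only 2.21 to 3.40 times the counting noise, whereas the other pairs within a group varied by 76.2 to 497 times. The labels do not say that replicates came from separate cultures, and the study's methods and a legend differ on how many replicates there were, so the p-values measure the spread between these libraries, part of which may be technical. In siSRSF1-3 replicates 1 and 2, the 4385 longest genes tested lay at a median of -0.36 and -0.29 relative to blank on the log2 scale, and ribosomal protein genes took 16.7% and 12.2% of the reads, against 5.67% to 7.17% elsewhere. Of 8 osteoblast lineage markers, SPARC, COL1A1, RUNX2 and ALPL were expressed and COL1A2, SP7, IBSP and BGLAP stayed below 1 FPKM in every library. The sums of the 8 ranged over 85.8 to 160.1 FPKM in blank, 65.8 to 100.4 with OE-LINC01134, 60.3 to 63.2 with siSRSF1-2 and 68.6 to 80.7 with siSRSF1-3. At a limma adjusted p under 0.05, 2 of the 4 expressed markers were lower and 1 higher with siSRSF1-2, against 12.8% and 14.0% of all genes. With OE-LINC01134, 2 were lower and 0 higher, against 0.73% and 0.45%. With siSRSF1-3, 0 were lower and 0 higher, against 0.935% and 0.342%. Of 9 markers of immune, epithelial and endothelial cells, 8 stayed below 1 FPKM in every library, and the exception, EPCAM, reached 2.43. The sums of the 9 ranged over 2.31 to 2.77 FPKM in blank, 2.62 to 2.86 with OE-LINC01134, 1.91 to 2.33 with siSRSF1-2 and 3.28 to 3.37 with siSRSF1-3, and the part of either marker list in the results was not tested.

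In blank cells the replication genes were more abundant than most. Their blank means ran from 1.36 to 112 FPKM with a median of 16.1, against a median of 3.91 FPKM over all genes tested. PCNA, the sliding clamp that tethers polymerases to DNA, and TK1, which phosphorylates salvaged thymidine, were the most abundant on this per-length scale, at 112 ± 43.3 and 91.4 ± 32.1 FPKM (mean ± SD, n = 3), followed by the helicase subunit MCM7 at 81.2 ± 44. These 3 means differed by less than their SDs. At the other end stood CCNE2, a cyclin E, at 1.36 ± 0.757 FPKM and POLA2, the accessory subunit of DNA polymerase alpha, at 2.2 ± 0.459. Within the MCM ring, whose 6 subunits are known to assemble in equal number, the blank means ranged from 16.1 FPKM for MCM2 to 81.2 FPKM for MCM7.

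The replication genes also separated libraries within the blank group. Blank replicate 1 was above both other blank libraries for 47 of the 49 genes, against 47.3% of all genes tested, and its level was a median of 1.64 times the mean of blank replicates 2 and 3, against 1.02 times over all genes. The ratio was highest for ORC1 (2.51), the largest subunit of the origin recognition complex, UHRF1 (2.48), which reads hemimethylated DNA behind the fork, CCNE2 (2.41), MCM7 (2.37) and MCM4 (2.3). It was near 1 for RPA3 (1.01), the smallest subunit of the single-strand binding complex, for POLE2 (0.996), a subunit of DNA polymerase epsilon, and for RFC1 (1.1), the large subunit of the clamp loader. CDKN1A, an inhibitor of the cyclin-dependent kinases, went the other way, at 90.6, 178 and 172 FPKM in blank replicates 1 to 3. It was named after its values were seen. Of the 25 RB and E2F regulators tested, 9 lay below the blank mean in blank replicate 1 and 16 above it, against 8227 and 9304 of all 17538 genes tested. In bulk RNA, fewer cells in S phase and less of these mRNAs per cell cannot be told apart, here and in every comparison below.

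As a group the replication genes lay lower in every siRNA library and higher in every OE-LINC01134 library than the blank mean. The median log2 difference of the 49 genes from the mean of the blank libraries was 0.47, -0.24 and -0.22 in blank replicates 1 to 3, 0.24, 0.37 and 0.29 with OE-LINC01134, -0.57, -0.61 and -0.62 with siSRSF1-2 and -0.42, -0.35 and -0.36 with siSRSF1-3. Over all genes tested the same medians lay between -0.03 and 0.07. The siSRSF1-2 and siSRSF1-3 libraries lay below all 3 blank libraries by this median, whereas the OE-LINC01134 libraries lay between blank replicate 1 and the other 2. The 3 comparisons against blank share the blank libraries, so blank replicate 1 enters each of them.

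**Figure D1:**
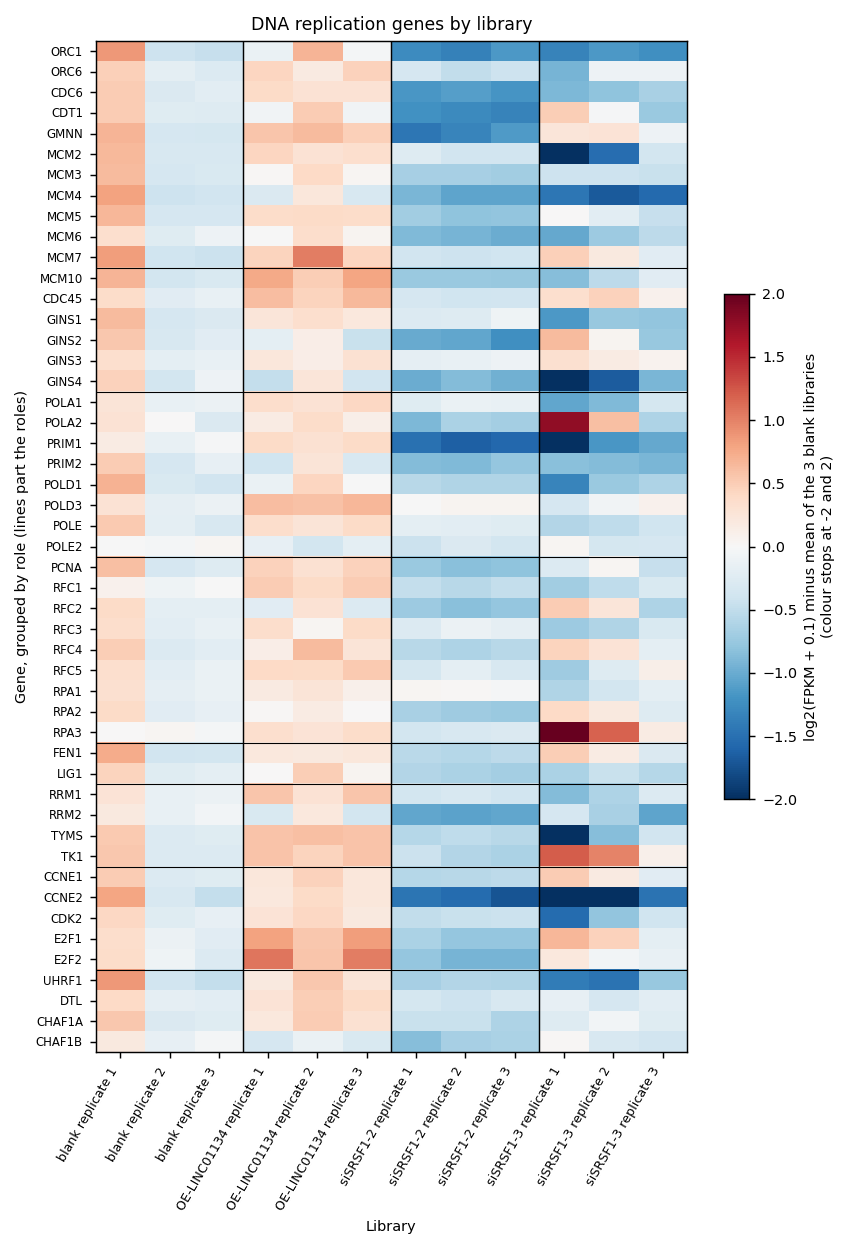
Colour gives log2(FPKM + 0.1) minus the mean of the 3 blank libraries for each of the 49 replication genes (vertical axis, grouped by role) in each of the 12 libraries (horizontal axis). Blank replicate 1 is red for nearly every gene, the siSRSF1-2 columns are blue and alike, and the siSRSF1-3 columns mix deep blue (MCM2, TYMS, CCNE2) with red (RPA3, TK1, POLA2).

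**Figure D2:**
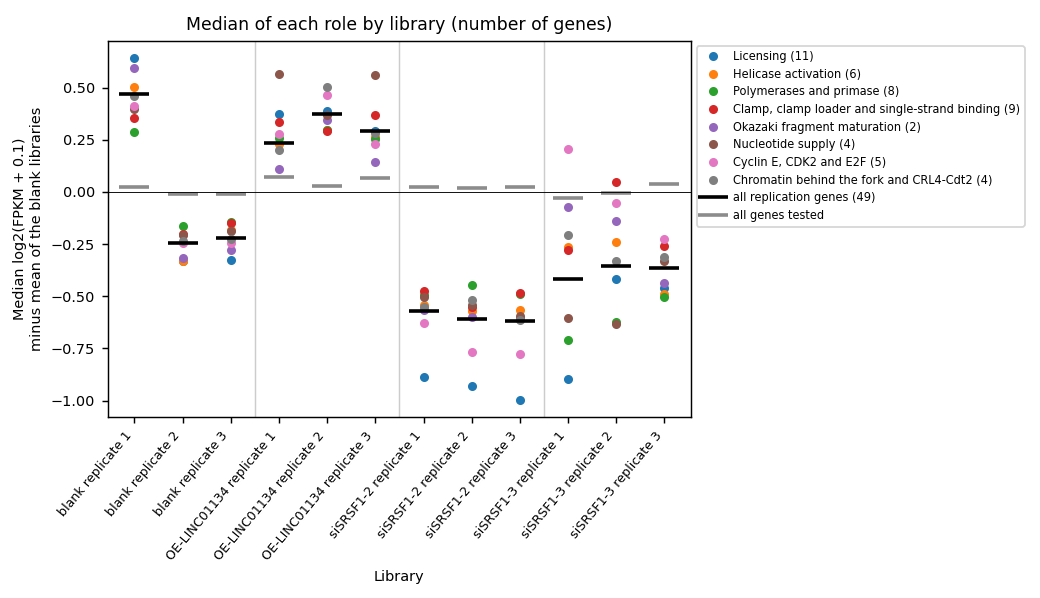
Points give the median log2(FPKM + 0.1) minus the blank mean for the genes of each role (number of genes in brackets) in each library, with black bars for all 49 genes and grey bars for all genes tested. The black bars stand at -0.57, -0.61 and -0.62 in the siSRSF1-2 libraries, where licensing genes lie lowest, while the grey bars stay near 0.

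With siSRSF1-2, 20 of the 49 replication genes fell and none rose. At a limma adjusted p under 0.05 over all genes tested, the background was 12.8% of all genes lower and 14.0% higher, so the share of replication genes lower was above that of genes at large. The 20 came from 7 of the 8 roles: 5 of 11 licensing genes, 2 of 6 genes of helicase activation, 4 of 8 polymerase and primase genes, 4 of 9 genes of the clamp, clamp loader and single-strand binding, 1 of 4 nucleotide supply genes, 3 of 5 cyclin E, CDK2 and E2F genes, and 1 of 4 chromatin genes. Okazaki fragment maturation, with 2 genes, had none. The median log2 fold change was -0.59 over the 49 genes and 0.02 over all genes, and 47 of 49 estimates were below 0. For 8 of the 20 the log2 fold change was also below -1, against 2.73% of all genes. For 39 of the 49 all siSRSF1-2 libraries lay below every blank library, against 24.2% of all genes.

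PRIM1, the catalytic subunit of the primase that starts every new strand (ENSG00000198056, chromosome 12, 56731596 to 56752373, minus strand; the genome build of the table's coordinates is not given in the sources used here), had the smallest p of the 49. It was at 13, 10.5 and 11.4 FPKM in blank replicates 1 to 3 and 4.04, 3.67 and 3.83 with siSRSF1-2. The groups were far apart and tight, and the log2 fold change was -1.57 ± 0.10 (SE; limma adjusted p = 9.51e-04). Its partner PRIM2, the other primase subunit, also fell (log2 fold change -0.84 ± 0.22), as did POLA2 (-0.74 ± 0.18). POLA1, the catalytic subunit of the same polymerase alpha complex, did not pass (log2 fold change -0.17 ± 0.13, limma adjusted p = 0.36).

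RRM2, the small subunit of ribonucleotide reductase, which makes deoxynucleotides (ENSG00000171848, chromosome 2, 10120698 to 10131419, plus strand), was at 30.2, 23.9 and 25.5 FPKM in blank and 12.7, 12.4 and 12.8 with siSRSF1-2. Every siSRSF1-2 library was near 12.7 FPKM, below the lowest blank library, with a log2 fold change of -1.05 ± 0.10 (limma adjusted p = 0.00199). The other 3 nucleotide supply genes did not pass. Their log2 fold changes were -0.36 ± 0.12 for RRM1, the large subunit of the reductase, -0.54 ± 0.22 for TYMS, the thymidylate synthase, and -0.55 ± 0.23 for TK1.

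Among the licensing genes, CDT1, the MCM loader (ENSG00000167513, chromosome 16, 88803213 to 88809258, plus strand), was at 31, 18.4 and 18.3 FPKM in blank and 9.42, 8.98 and 8.59 with siSRSF1-2, with no overlap (log2 fold change -1.27 ± 0.21, limma adjusted p = 0.00927). GMNN, whose product geminin binds and blocks CDT1, was at 20.3, 10.004 and 9.89 FPKM in blank and 4.57, 4.98 and 5.73 with siSRSF1-2 (log2 fold change -1.30 ± 0.29, limma adjusted p = 0.023). The loader and its inhibitor thus both fell, as did CDC6 (log2 fold change -1.15 ± 0.21) and ORC1 (-1.25 ± 0.36, limma adjusted p = 0.0486, the largest among the 20).

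Of the 6 MCM subunits only MCM6 (ENSG00000076003, chromosome 2, 135839626 to 135876426, minus strand) passed in this comparison, at 23, 15.4 and 17.1 FPKM in blank and 9.82, 9.53 and 9.1 with siSRSF1-2 (log2 fold change -0.94 ± 0.15, limma adjusted p = 0.00846). MCM4 had a larger estimate, -1.004 ± 0.33, with a wider error (limma adjusted p = 0.0701). MCM7 was at 132, 56.3 and 55.2 FPKM in blank and 56.7, 55.7 and 56.4 with siSRSF1-2, where it lay at the level of blank replicates 2 and 3. The estimates for MCM2, MCM3, MCM5 and MCM7 were -0.34, -0.68, -0.76 and -0.40.

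All 6 genes of helicase activation had estimates below 0. GINS2 and GINS4, 2 of the 4 subunits of the GINS complex, fell (log2 fold changes -1.09 ± 0.23 and -0.94 ± 0.21), and GINS1 and GINS3 had estimates of -0.20 ± 0.26 and -0.15 ± 0.15 and did not pass. CDC45, the other partner of the active helicase, was at 40.4, 26.5 and 28.3 FPKM in blank and 24.6, 23.6 and 23.9 with siSRSF1-2. Its siSRSF1-2 libraries lay just below the lowest blank library, and it did not pass (limma adjusted p = 0.138), nor did MCM10 (-0.75 ± 0.28), which is needed to switch the helicase on.

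At the fork, RFC1 (ENSG00000035928, chromosome 4, 39287456 to 39366375, minus strand) was at 22.4, 19.96 and 21 FPKM in blank and 15.2, 14.4 and 15.1 with siSRSF1-2 (log2 fold change -0.50 ± 0.07, limma adjusted p = 0.00493). RPA3 (ENSG00000106399, chromosome 7, 7636518 to 7718607, minus strand) was at 23.7, 24.1 and 22.9 FPKM in blank and 18.2, 18.8 and 19.2 with siSRSF1-2 (-0.33 ± 0.06, limma adjusted p = 0.0099), a small drop between tight groups. POLE2 was at 16, 15.6 and 16.6 FPKM in blank and 11.9, 13.2 and 12.4 with siSRSF1-2 (-0.36 ± 0.07, limma adjusted p = 0.0122). RFC1, RPA3 and POLE2 are among the genes with the least spread between blank libraries, and their drops were the smallest of the 20. PCNA had a larger estimate, -0.79 ± 0.25, from 162, 84.2 and 89.5 FPKM in blank to 63.8, 60.1 and 61 with siSRSF1-2, and did not pass (limma adjusted p = 0.0612), with blank replicate 1 far above the other blank libraries. RFC2, another clamp loader subunit, and RPA2 also fell (log2 fold changes -0.78 ± 0.17 and -0.70 ± 0.16), and RFC3, RFC4, RFC5 and RPA1 did not pass. RPA1, the large subunit of the same RPA complex, was at 19.4, 13.6 and 14 FPKM in blank and 15.9, 15.6 and 15.1 with siSRSF1-2, and POLD3, a subunit of DNA polymerase delta, at 9.04, 6.54 and 6.81 in blank and 7.31, 7.7 and 7.65 with siSRSF1-2. These were the 2 estimates above 0, at 0.01 and 0.03, and for both genes the groups overlapped. The catalytic subunit of that polymerase, POLD1, was at 27.1, 13.5 and 12.8 FPKM in blank and 11.3, 10.9 and 10.9 with siSRSF1-2, below every blank library without passing (limma adjusted p = 0.174). FEN1, the flap nuclease of Okazaki fragments, was at 84.8, 38.7 and 39.4 FPKM in blank and 34.9, 34 and 35.1 with siSRSF1-2, and LIG1, which seals them, had a log2 fold change of -0.63 ± 0.19. Neither passed.

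**Figure D3:**
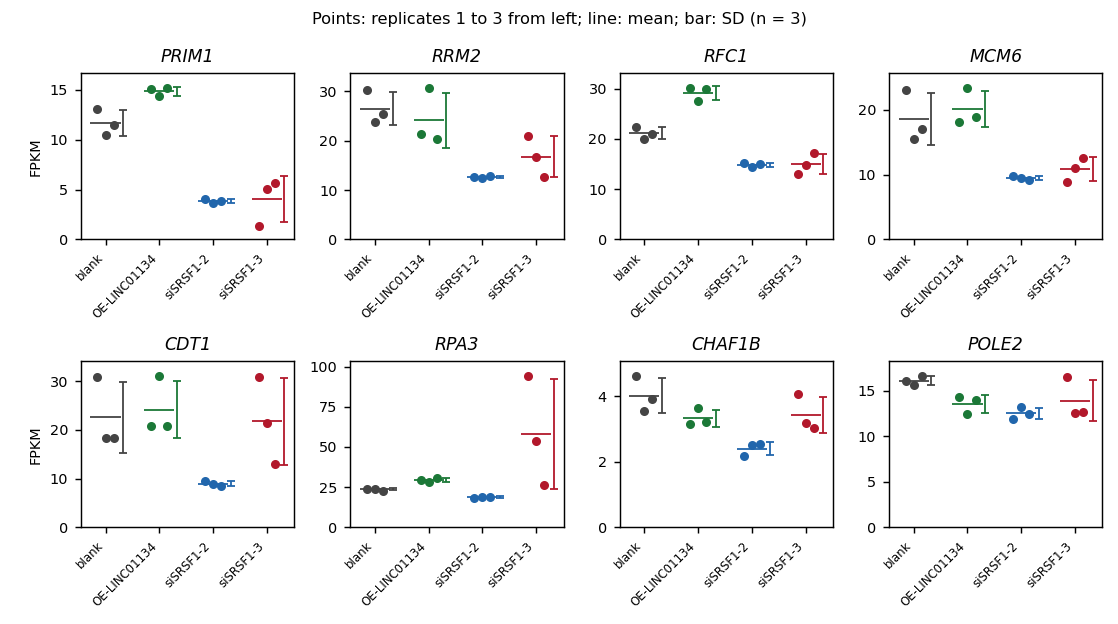
FPKM (vertical axes, from 0) of the 8 replication genes with the smallest adjusted p with siSRSF1-2 in each group (horizontal axes), with points for replicates 1 to 3 from left, lines for means and bars for SD (n = 3). In every panel the siSRSF1-2 points lie below all blank points, and in the RPA3 panel the siSRSF1-3 points spread from 26.4 to 93.9 FPKM.

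Of the 5 cyclin E, CDK2 and E2F genes, which open S phase, CCNE2, E2F1 and E2F2 fell. CCNE2 had, with PRIM1, the largest drop of the 49, from 2.23, 0.984 and 0.869 FPKM in blank to 0.388, 0.362 and 0.308 with siSRSF1-2 (log2 fold change -1.58 ± 0.37, limma adjusted p = 0.0254), at low levels throughout. CCNE1, the more abundant cyclin E, was at 40.8, 23.7 and 24.1 FPKM in blank and 19.2, 19.4 and 19.7 with siSRSF1-2, did not overlap and did not pass (limma adjusted p = 0.107). The log2 fold changes of the transcription factors E2F1 and E2F2 were -0.72 ± 0.16 and -0.88 ± 0.17, and CDK2, the kinase partner of cyclin E, did not pass (-0.45 ± 0.18). Behind the fork, CHAF1B, a subunit of the histone chaperone CAF-1, was at 4.6, 3.54 and 3.89 FPKM in blank and 2.16, 2.49 and 2.55 with siSRSF1-2 (log2 fold change -0.71 ± 0.13, limma adjusted p = 0.0113). UHRF1, at 25.4, 10.6 and 9.89 FPKM in blank and 8.73, 9.15 and 9.08 with siSRSF1-2, the other CAF-1 subunit CHAF1A (-0.50 ± 0.23) and DTL (-0.37 ± 0.17), which directs the ubiquitin ligase that removes CDT1 in S phase, did not pass.

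How many replication genes passed with siSRSF1-2 turned on which libraries entered. Without blank replicate 1, 39 were lower, including all 20 above, and 2 (POLD3 and RPA1) were higher. The shares of all genes were 24.7% lower and 27.4% higher, and the median drop shrank to -0.36. Both groups then held only near-identical libraries (2.94 times the counting noise in blank, 2.72 to 3.40 with siSRSF1-2). The p-values of this fit thus rest on a spread that may be largely technical, and its calls are no independent check of the 20. Without siSRSF1-2 replicate 1, 2 or 3, the number lower was 5, 7 and 6, and RPA3 passed in none of the 3 cases. In other fits, 8 genes were lower when all 4 groups shared 1 fit and also when no filter on low values was applied. The shares of all genes passing were not counted for these fits or for those without 1 siSRSF1-2 library. A change over all genes and a change in the replication genes cannot be told apart there. Averaging the near-identical libraries first left 1 siSRSF1-2 library against 2 blank libraries, with the spread taken from the other groups. The median of the 49 was then -0.75, and 9 were lower at an unadjusted p under 0.05 and 0 at the adjusted one (smallest limma adjusted p = 0.9999), in a fit where SRSF1 itself did not pass either.

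With siSRSF1-3, the replication genes leaned lower, but none passed. At a limma adjusted p under 0.05, 0 were lower and 0 higher, against 0.935% and 0.342% of all genes. At an unadjusted p under 0.05, 18 were lower and 1 higher, against 13.6% and 15.2% of all genes. The median log2 fold change was -0.38 against -0.01 over all genes, 36 of 49 estimates were below 0, and for 23 of the 49 every siSRSF1-3 library lay below every blank library, against 18.0% of all genes. The smallest limma adjusted p was 0.0657, for MCM4. Without siSRSF1-3 replicate 3, 11 were lower (among them CCNE2, MCM2 and GINS4) and 2 higher (RPA3 and TK1). In a fit shared by all 4 groups 17 were lower and 1 higher, and on the recovered reads with voom 1 was lower. For these fits the shares of all genes were not counted, so the counts are not set against a background. Without blank replicate 1, the median was -0.14 and 29 of 49 estimates were below 0. At an unadjusted p under 0.05, 9 were then lower and 3 higher. The share of all genes at that unadjusted p was not counted for this fit.

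The siSRSF1-3 libraries differed from each other more than those of the other knockdown. The median coefficient of variation of the 49 genes was 21.8% with siSRSF1-3, 3.8% with siSRSF1-2, 8.11% with OE-LINC01134 and 31.1% in blank, and 12 of the 49 varied more than 2-fold among the 3 siSRSF1-3 libraries. The estimates ran from -2.38 for CCNE2 to 1.11 for RPA3. CCNE2 was at 0.058, 0.125 and 0.387 FPKM in siSRSF1-3 replicates 1 to 3, below every blank library (log2 fold change -2.38 ± 0.59, limma adjusted p = 0.0802). MCM2 was at 0.708, 5.27 and 11.9 FPKM, against 24, 12.3 and 12.2 in blank, and GINS4 at 0.522, 1.68 and 2.9, against 7.68, 4.27 and 5.16. In MCM2 and GINS4 replicate 1 was far below the other siSRSF1-3 libraries, and the errors were wide (log2 fold changes -2.05 ± 0.92 and -1.92 ± 0.56). Replicate 1 was also far below the rest in TYMS, at 2.52, 17.6 and 24.4 FPKM against 45.8, 26.2 and 26.7 in blank (-1.61 ± 0.80), and in PRIM1, at 1.36, 5.1 and 5.63 FPKM (-1.73 ± 0.51).

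RPA3, TK1 and POLA2 had the largest estimates above 0. RPA3 was at 93.9, 53.7 and 26.4 FPKM, above every blank library (log2 fold change 1.11 ± 0.43, limma adjusted p = 0.152). TK1 was at 203, 175 and 94.5 FPKM, against 128, 73.1 and 72.6 in blank (0.77 ± 0.38), and POLA2 at 7.64, 3.33 and 1.38, against 2.67, 2.18 and 1.76 (0.58 ± 0.56). All 3 were highest in replicate 1 and lowest in replicate 3, and without replicate 1 the POLA2 estimate was -0.01.

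Other genes were alike in all 3 siSRSF1-3 libraries. MCM4 was at 7.2, 6.09 and 6.67 FPKM, against 34.4, 14.7 and 15.2 in blank, a log2 fold change of -1.56 ± 0.34. ORC1 was at 2.89, 3.29 and 3.12 FPKM, against 13.7, 5.55 and 5.4 (-1.24 ± 0.37, limma adjusted p = 0.103), and PRIM2 at 5.43, 5.29 and 5.15, against 13.9, 7.73 and 8.67 (-0.87 ± 0.24, limma adjusted p = 0.0961). In each of these 3 genes, which were picked out after their values were seen, the siSRSF1-3 libraries lay close together and below the lowest blank library.

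**Figure D4:**
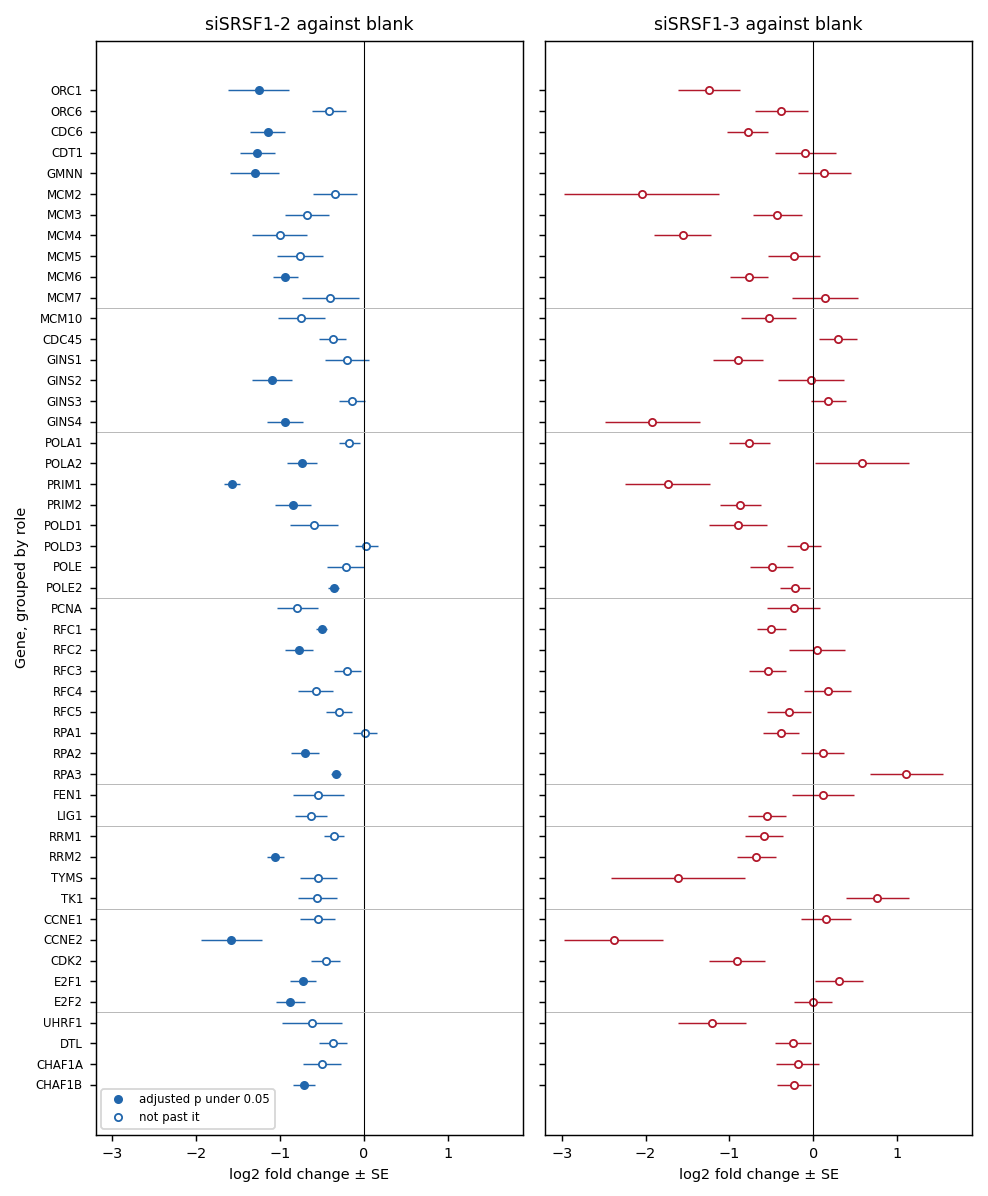
Log2 fold change ± SE (horizontal axes) of each of the 49 replication genes (vertical axis, grouped by role) with siSRSF1-2 (left) and siSRSF1-3 (right) against the same 3 blank libraries, with filled points for a limma adjusted p under 0.05. The left panel has 20 filled points, all below 0, and the right panel has none, with wider bars for MCM2, TYMS, GINS4, PRIM1 and CCNE2.

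The abundant members of each role were mixed with siSRSF1-3. MCM7 was at 103, 84.9 and 63.3 FPKM, CDC45 at 39.6, 42.7 and 33.2 and PCNA at 88, 110.3 and 77.2. MCM7 fell inside the range of the blank libraries, CDC45 inside or above it, and PCNA inside or below it. POLD1 was at 6.62, 9.99 and 10.9 FPKM and UHRF1 at 5.2, 4.92 and 8.18, both below every blank library, while FEN1, at 71, 56.7 and 41.3, and CCNE1, at 40.8, 32.3 and 24.4, overlapped with blank. By role, the median log2 fold change was lowest for nucleotide supply (-0.64), the polymerases and primase (-0.63) and licensing (-0.43), and was -0.00076 for the cyclin E, CDK2 and E2F genes. Without blank replicate 1 these medians were -0.52, -0.39, -0.14 and 0.18.

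Gene length moved with these values. Gene lengths in the table ran from 1471 to 16609 bases over the 49, with a median of 4299. The 24 genes shorter than this median lay at a median log2 difference from the blank mean of 0.14, 0.01 and -0.32 in siSRSF1-3 replicates 1 to 3, and the 24 longer ones at -0.66, -0.51 and -0.39. Shorter and longer genes thus parted in replicates 1 and 2 and lay close together in replicate 3. With siSRSF1-2 the shorter genes lay between -0.60 and -0.57, and the longer ones between -0.63 and -0.62. Removing the trend with length over all genes left the median of the 49 at -0.40 with siSRSF1-3, with 0 genes passing in either direction.

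**Figure D5:**
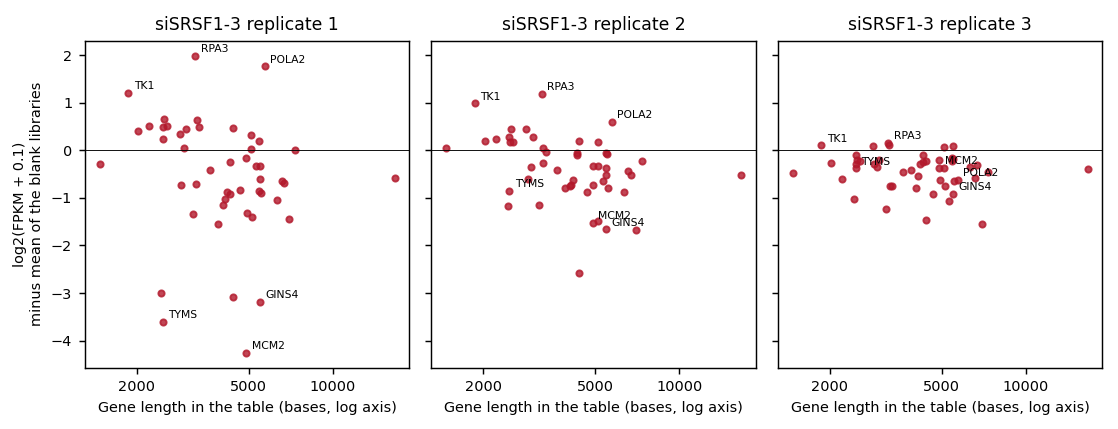
Log2(FPKM + 0.1) minus the blank mean (vertical axis) of the 49 replication genes against gene length in the table (bases, log axis) in siSRSF1-3 replicates 1, 2 and 3. The points spread widest in replicate 1 and least in replicate 3, where RPA3, TK1, POLA2, MCM2, TYMS and GINS4 lie with the rest.

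Set against each other directly, no replication gene passed at a limma adjusted p under 0.05 between the siRNAs, with 0 higher and 0 lower with siSRSF1-3 than with siSRSF1-2, against 0.0342% and 0.0513% of all genes. At an unadjusted p under 0.05, 21 were higher and 6 lower, against 21.9% and 20.2% of all genes. GMNN came nearest, at 14.9, 15.3 and 11.7 FPKM with siSRSF1-3 and 4.57, 4.98 and 5.73 with siSRSF1-2 (difference 1.43 ± 0.16 on the log2 scale, limma adjusted p = 0.0515), and its siSRSF1-3 level lay inside the range of the blank libraries. The largest differences upward were in RPA3 (1.44 ± 0.44), GMNN and TK1 (1.32 ± 0.30) and downward in MCM2 (-1.70 ± 0.94), TYMS (-1.07 ± 0.82) and GINS4 (-0.98 ± 0.56). These differences moved with gene length, with a Spearman rank correlation of -0.37 over the 49, or -0.09 with the length trend removed. With that trend removed, the largest difference upward was in POLA2 (1.41), GMNN was at 1.09, and MCM2 stayed at -1.69. Without siSRSF1-3 replicate 3, 23 were higher and 12 lower, and with 1 fit over all 4 groups 14 were higher and 2 lower. No share of all genes was counted for these fits, and the shares above are not their background. The median difference was 0.17, against -0.02 over all genes, and its sign depended on scaling: scaled by each library's own read total it was -0.13, with the median over all genes at -0.31.

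With OE-LINC01134, the estimates leaned higher and none passed. At a limma adjusted p under 0.05, 0 of the 49 were higher and 0 lower, against 0.45% and 0.73% of all genes, and at an unadjusted p under 0.05, 11 were higher and 0 lower, against 14.0% and 12.3%. The median log2 fold change was 0.32 against 0.05 over all genes, and 41 of 49 estimates were above 0. For 11 of the 49 every OE-LINC01134 library lay above every blank library, against 16.8% of all genes. The result again turned on blank replicate 1, without which 28 were higher and 0 lower, against 7.61% of all genes higher, and the median was 0.57. Without OE-LINC01134 replicate 2, 5 were higher, and 3 were higher in 1 fit over all 4 groups, with no share of all genes counted for either fit.

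The largest estimates with OE-LINC01134 were in the E2F genes. E2F2 was at 9.9, 6.88 and 9.52 FPKM, against 6.0, 4.35 and 3.83 in blank, above every blank library (log2 fold change 0.89 ± 0.22, limma adjusted p = 0.0806). E2F1 was at 44.2, 36.7 and 45.4 FPKM, against 32.3, 23.2 and 21.5, also above every blank library (0.73 ± 0.18, limma adjusted p = 0.0808). MCM10 was at 18.3, 15.2 and 18.8 FPKM, against 17.3, 8.34 and 8.72, and overlapped with blank replicate 1 (0.68 ± 0.28). In all 3 genes OE-LINC01134 replicate 2 was the lowest of its group. RFC1 had the smallest limma adjusted p of the 49, 0.0687, at 30.04, 27.6 and 29.9 FPKM and a log2 fold change of 0.47 ± 0.10. The lowest estimates were -0.26 ± 0.15 for CHAF1B, -0.24 ± 0.11 for POLE2 and -0.20 ± 0.28 for GINS4. CHAF1B was at 3.14, 3.63 and 3.21 FPKM, POLE2 at 14.4, 12.5 and 14 and GINS4 at 3.96, 6.59 and 4.21. Of these, only POLE2 lay below every blank library, and without blank replicate 1 the GINS4 estimate was 0.03. MCM7 was at 101, 151 and 100.1 FPKM, with replicate 2 above all blank libraries. PCNA, at 147, 132 and 147, lay between blank replicate 1 and the other blank libraries, and TK1, at 131, 120.2 and 131, lay close to blank replicate 1. The other abundant members, CDC45 (47.7, 42.7 and 48.7 FPKM), FEN1 (58.7, 58.2 and 59.4), POLD1 (15.2, 22.5 and 16.7), CCNE1 (33.5, 39.5 and 33.5) and UHRF1 (15.9, 20.3 and 16.6), lay above blank replicates 2 and 3 in every library, and of them only CDC45 also lay above blank replicate 1.

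Other replication genes outside the 49, such as checkpoint and fork-stability factors, further polymerase subunits and nucleotide enzymes, were counted in the same way. Of 46 listed, 45 were tested: with siSRSF1-2, 11 were lower and 0 higher, against 12.8% and 14.0% of all genes, and the median estimate was -0.32. Without blank replicate 1 these became 22 lower and 11 higher, against 24.7% and 27.4% of all genes, with a median of -0.15. With siSRSF1-3, 0 passed, and at an unadjusted p under 0.05, 12 were lower and 6 higher, against 13.6% and 15.2% of all genes, with a median of -0.30 (7 lower, 4 higher and a median of -0.20 without blank replicate 1). CDC25A, the phosphatase that activates CDK2, was at 11.2, 7.96 and 8.71 FPKM in blank and 4.58, 4.45 and 4.47 with siSRSF1-2 (log2 fold change -1.01 ± 0.13, limma adjusted p = 0.00455). DCTPP1, which clears modified deoxynucleotides, fell from 28.7, 18.6 and 21 FPKM in blank to 11, 9.89 and 9.81 (-1.12 ± 0.16), and DSCC1, of an alternative clamp loader, from 24.1, 14.3 and 15.8 to 7.62, 8.14 and 7.31 (-1.19 ± 0.20). With siSRSF1-3 all 3 overlapped with blank. CDC25A was at 12.1, 8.94 and 9.12 FPKM in siSRSF1-3 replicates 1 to 3, DCTPP1 at 38.1, 28.7 and 15.4 and DSCC1 at 16, 14.5 and 13.6.

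Among these 45 genes, the smallest p with siSRSF1-3 belonged to CDC7, the kinase that fires licensed origins, at 8.29, 5.36 and 4.84 FPKM in blank and 1.91, 1.9 and 2.82 with siSRSF1-3 (log2 fold change -1.42 ± 0.27, limma adjusted p = 0.055). It was followed by WDHD1, which couples the helicase to polymerase alpha, at 11.3, 8.27 and 8.39 FPKM in blank and 3.9, 3.99 and 5.7 with siSRSF1-3 (-1.03 ± 0.23), and ORC3, of the origin recognition complex, at 9.18, 6.44 and 6.86 in blank and 4.47, 4.35 and 4.38 with siSRSF1-3 (-0.74 ± 0.19). Each lay below every blank library without passing. With OE-LINC01134, 1 of the 45 passed and it was higher, against 0.45% of all genes higher and 0.73% lower. It was ORC5, at 25, 21 and 26.4 FPKM against 12.4, 9.63 and 9.83 in blank (log2 fold change 1.18 ± 0.15, limma adjusted p = 0.0361), named here after its value was seen. The median over the 45 was 0.30. Leaving out blank replicate 1 made 20 of the 45 higher and 1 lower, against 7.61% of all genes higher. Between the siRNAs, 0 of the 45 passed, and the median difference was -0.04.

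Of the regulators upstream of E2F, 25 of 26 listed were tested. With siSRSF1-2, 4 were lower and 5 higher, shares near those of all genes (12.8% and 14.0%), and the median estimate was -0.0023 on the log2 scale. Leaving out blank replicate 1 gave 8 lower and 12 higher, against 24.7% and 27.4% of all genes. The lower ones were CCND1, CCND2, CCND3 and CDKN2B, and the higher ones RBL2, E2F6, E2F7, CDK4 and MYC. CCND1, the cyclin D that starts phosphorylation of the RB protein, was at 40.5, 29.8 and 29.7 FPKM in blank, 11, 10.8 and 11.8 with siSRSF1-2, 5.47, 5.57 and 6.76 with siSRSF1-3 and 8.29, 17.6 and 8.64 with OE-LINC01134. It fell with siSRSF1-2 (log2 fold change -1.55 ± 0.13, limma adjusted p = 0.00168) and siSRSF1-3 (-2.46 ± 0.20, limma adjusted p = 0.0184) and lay below all blank libraries with OE-LINC01134 without passing (limma adjusted p = 0.060). CCND3, another cyclin D, fell with siSRSF1-2, from 18.2, 14.7 and 14.2 FPKM in blank to 7.63, 7.72 and 8.23 (-0.98 ± 0.11), and was at 9.05, 8.9 and 6.47 with siSRSF1-3 (limma adjusted p = 0.0651). E2F7, a repressor among the E2F factors, rose with siSRSF1-2, from 13.6, 14.8 and 14.5 to 21.4, 22.1 and 22.7 FPKM (0.62 ± 0.06, limma adjusted p = 0.00244). CDKN2B, an inhibitor of the cyclin D kinases, was at 2.04, 3.27 and 2.97 FPKM in blank and 0.603, 0.572 and 0.846 with siSRSF1-3, and fell (-1.88 ± 0.28, limma adjusted p = 0.0453, or 0.0787 without blank replicate 1). With OE-LINC01134 it was the only regulator of the 25 that passed, against 0.73% of all genes lower and 0.45% higher. It was lower, at 0.034, 0.361 and 0.0517 FPKM (limma adjusted p = 0.0402), with replicates 1 and 3 below the 0.1 FPKM added before logs. The median of the 25 with OE-LINC01134 was 0.31. Without blank replicate 1, 8 of the 25 were higher and 1 lower, against 7.61% of all genes higher. CCND1 and CDKN2B were the 2 of 25 lower with siSRSF1-3, with 0 higher, against 0.935% and 0.342% of all genes, and the median was -0.51. Of these 2, CCND1 alone passed without blank replicate 1. Between the siRNAs, 0 of the 25 passed. An inhibitor of the cyclin D kinases and cyclin D1 itself were thus both lower with siSRSF1-3. CDKN1A, named after its values were seen, was at 292, 247 and 199 FPKM with siSRSF1-3, above every blank library without passing (limma adjusted p = 0.177).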

How the data were processed

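The authors deposited 1 table of FPKM values for 58735 genes in 12 RNA-seq libraries. The aligner, counter and human genome build behind it are not given in the sources used here (the submitters' processing notes name only a mouse build, whereas the genes are human), and the labels and the study's supplementary methods name different library kits. Multiplied by gene length and divided by each library's unit step, every value came out whole (100% within 0.01, largest deviation 0.000156), which gave 26237763 to 32954539 reads on genes per library.

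Values were tested as log2(FPKM + 0.1), so fold changes of low genes are understated. The 17538 genes whose mean reached 0.5 FPKM entered limma (version 3.58.1, R 4.3.3; lmFit and eBayes with a mean-variance trend), 3 against 3 libraries, with Benjamini-Hochberg adjustment over all genes and calls at an adjusted p under 0.05. The authors used DESeq2 and also asked for an absolute log2 fold change over 1. The fit was tested on simulated data. Single values were tested with exact permutation tests (scipy 1.17.1). The members and lists were chosen with earlier results of these data known. Genes given with every library's value were, in each comparison and direction, up to 8 passing with the smallest adjusted p (or, with fewer than 3, the largest estimates up to 3), the most abundant of each role, and 3 of each other list with the smallest p for either siRNA. Others were named after their values were seen. Alternatives covered the pseudocount, filter, scaling, fit, gene length, voom, a replicate block and leaving out each library. Averaging near-identical libraries was added after seeing the data. The lists of other replication genes, RB and E2F regulators, G2/M genes and cell type markers are described by counts and medians.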

Additional observations from a re-analysis of the deposited data

How the results depend on the processing

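The direction of the median of the 49 genes held under every alternative tried in the 3 comparisons against blank. Shares of all genes passing were counted only for the fits given first in each comparison and for those without blank replicate 1. The other counts below have no background beside them. Leaving out 1 library gave 0 to 2 genes higher and 0 to 11 lower with siSRSF1-3, 0 to 2 higher and 5 to 39 lower with siSRSF1-2, 0 to 28 higher with OE-LINC01134, and 0 to 23 higher and 0 to 12 lower between the siRNAs, whose median then ran from 0.11 to 0.26. One fit over all 4 groups gave 1 higher and 17 lower with siSRSF1-3, 8 lower with siSRSF1-2, 3 higher with OE-LINC01134, and 14 higher and 2 lower between the siRNAs. With siSRSF1-2, 8 were lower without a filter, 8 with a log2 fold change below -1, and 0 with near-identical libraries averaged. voom gave 1 lower with siSRSF1-3, and voom, a pseudocount of 1, no filter and removal of the length trend each gave 1 higher between the siRNAs. The median was -0.63 with siSRSF1-3 by own read total (all genes -0.26). Scaled to the same FPKM sum, it was -0.82 with siSRSF1-3 (all genes -0.43) and -0.40 between the siRNAs (all genes -0.57), where own read total gave -0.13. Scaling by own read total lowers siSRSF1-3 because its replicates 1 and 2 were deposited at 0.712 and 0.888 times their own read totals, and the cause of the shift under the same FPKM sum was not tested.

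SRSF1 with siSRSF1-3 passed with a pseudocount of 1 (-1.92), 1 fit over all groups (-2.09), the length trend removed (-2.22), voom (-2.08) and leaving out libraries (-2.33 to -1.72, passing only without siSRSF1-3 replicate 3). With siSRSF1-2 it did not pass with near-identical libraries averaged (-1.86). Estimates near 0 changed sign. With siSRSF1-2, POLD3 ran from -0.055 to 0.18 when 1 library was left out and was -0.040 with near-identical libraries averaged, and RPA1 ran from -0.083 to 0.17, was -0.071 averaged and was -0.0016 with the length trend removed. POLA2 with siSRSF1-3 ran from -0.011 to 1.18, and GINS4 with OE-LINC01134 from -0.43 to 0.029.

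Correlations between the deviations of same-numbered libraries ran from -0.08 to 0.21, with 2 of 18 over 0.1. They gave little sign that the numbers pair the samples but cannot exclude it. The siSRSF1-2 libraries, for example, differ too little from each other to show a pairing. With the replicate number as a block, 12 genes were lower with siSRSF1-2 and 0 passed in the other comparisons. The depth was alike in all libraries. Pairs within a group differed by 2.21 to 497 times the counting noise, so for most genes the spread between libraries exceeded that of counting. In the near-identical sets, at 2.21 to 3.40 times, and for genes with few reads, counting takes a larger part.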

Other observations

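Genes of the next cell cycle phases, G2 and mitosis, can be set beside the replication genes. Of 28 listed, 27 were tested. With siSRSF1-2, 12 of the 27 were lower and 0 higher at a limma adjusted p under 0.05, against 12.8% and 14.0% of all genes (median estimate over the 27, -0.46 on the log2 scale). Without blank replicate 1, 18 were lower and 4 higher, against 24.7% and 27.4% of all genes, and the median estimate was -0.32. With siSRSF1-3, 0 passed (at an unadjusted p under 0.05, 10 lower and 0 higher, against 13.6% and 15.2% of all genes, or 6 and 0 without blank replicate 1) with a median of -0.56, or -0.31 without that library. With OE-LINC01134, 0 passed and the median was 0.36. By the unadjusted p, 8 were higher, against 14.0% of all genes, and 0 lower, and without blank replicate 1, 12 passed and were higher, against 7.61%. Blank replicate 1 was again the highest of the blank group by their median, at 0.37, -0.20 and -0.17 in blank replicates 1 to 3 relative to the blank mean.

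HMMR, a spindle and hyaluronan-binding protein, was at 11.1, 10.1 and 9.98 FPKM in blank, 5.48, 5.46 and 5.36 with siSRSF1-2 and 2.68, 3.32 and 5.93 with siSRSF1-3, and fell with siSRSF1-2 (log2 fold change -0.93 ± 0.07, limma adjusted p = 0.00126; -1.45 ± 0.30 with siSRSF1-3, adjusted p = 0.0601). CDC25C, the phosphatase that activates CDK1, fell with siSRSF1-2 from 5.07, 5.05 and 5.12 to 3.4, 2.98 and 3.34 FPKM (-0.64 ± 0.08). AURKB, the kinase of the chromosomal passenger complex, fell from 27.2, 26.1 and 24.3 to 19.3, 16.7 and 17.2 FPKM (-0.54 ± 0.08), and was at 58.8, 41.8 and 23.9 FPKM with siSRSF1-3, overlapping with blank. KIF20A, a kinesin of cytokinesis, was at 15.6, 6.15 and 6.7 FPKM in blank and 1.38, 2.15 and 2.58 with siSRSF1-3 (-2.08 ± 0.41, limma adjusted p = 0.0555), and the checkpoint kinase BUB1 at 24.3, 17.6 and 17.7 in blank and 5.28, 7.96 and 11.3 with siSRSF1-3 (-1.32 ± 0.30, limma adjusted p = 0.0716). Both lay below every blank library. No test of the replication genes against the G2/M genes was run.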
